A study of Rattus norvegicus with 5 samples.

Results

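The ovaries of 2 single rats were compared at the level of the transcript: 1 from a rat given platelet-rich plasma after 5 weekly cisplatin injections, and 1 from a rat given the 5 injections alone. They were chosen by their treatment labels and are 2 of the 5 libraries of the series. Both came from female Sprague Dawley rats aged 10 to 12 weeks that received cisplatin into the peritoneum at 3 mg/kg. The platelet-rich plasma (PRP), prepared from the blood of donor rats, was injected into the ovary at laparotomy 1 week after the last cisplatin dose, with antibiotics for the first 3 days afterwards. That ovary was taken 2 weeks after PRP. For rats on cisplatin without PRP, the labels state no collection time of their own. Laparotomy and antibiotics went with PRP and cannot be told apart from it. Each group held 6 rats, of which 1 ovary was drawn at random for sequencing. The other 3 libraries, used only to show where levels lie elsewhere, came from an ovary of a saline control (5 injections of 0.9% NaCl), one given 3 cisplatin injections, and one given 3 injections and then PRP. Below, "cisplatin ovary" and "PRP ovary" are those of the 5-injection schedule unless 3 injections are named.

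The ovary holds follicles, each an oocyte with its granulosa and theca cells, together with corpora lutea, stroma, vessels and surface epithelium. Cisplatin binds DNA and forms crosslinks, and dividing granulosa cells and oocytes are known to be sensitive to it, which is why it is used to model premature ovarian insufficiency. PRP is plasma enriched in platelets, whose granules release growth factors such as platelet-derived and vascular endothelial growth factors when they are activated. Which of these cells a transcript comes from could not be read here, because the files number the transcripts and do not pair the numbers with gene names. Of 299341 identifiers, 0 were found in the reference gene table, so neither the tissue label nor any cell type was checked against its markers. In whole tissue, fewer cells of a type and less RNA per cell cannot be told apart.

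The cisplatin library held 26383246 estimated counts and the PRP library 31822055, and the other 3 held between 27088350 and 30742959. In spite of its larger total the PRP library listed fewer transcripts, 180115 against 239393, where the others listed 191684 to 258238. Length less effective length, which tracks the size of the sequenced fragments, had a median over transcripts above 5000 bases of 194 bases in the PRP library and 223 in the cisplatin library. It was 186 to 229.9 bases in the others. With 1 library in each group the spread between animals is unknown, so differences are given as sizes, with no p-value. Intervals are exact 95% Poisson intervals on the rounded estimated counts and cover counting error only.

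The PRP ovary had fewer transcripts at low and moderate levels and more at high levels. Levels are in TPM (transcript abundance scaled to a fixed sum), which divides the counts by effective length and sets every library to the same total. At 1 TPM or more there were 52059 transcripts in the cisplatin ovary and 30577 in the PRP ovary. At 5 TPM or more the numbers were 18841 and 13954. Here the PRP ovary lay below all 4 others, which had 17108 to 18841. At 100 TPM or more the order turned, with 1359 in the cisplatin ovary and 1585 in the PRP ovary, against 1374 to 1513 in the other 3. At 1000 TPM or more there were 90 and 150, against 85 to 115. The 1000 transcripts at the highest TPM made up 48.1% of all TPM in the cisplatin ovary and 59.9% in the PRP ovary, the highest share of the 5, the others lying between 44.9% and 54.1%. The single transcript with the most counts took 0.337% of the counts in the cisplatin library and 1.53% in the PRP library.

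Of 20458 transcripts that reached 5 TPM in at least 1 of the 2 ovaries, 2034 (9.94%) stood 2-fold or more above cisplatin alone with PRP and 6467 (31.6%) stood 2-fold or more below it. Differences are log2(TPM + 1) with PRP minus cisplatin alone, a scale that understates the difference of low transcripts. The median was -0.48 and the 25th to 75th percentile ran from -1.24 to 0.23. A transcript counted because it passed 5 TPM in 1 ovary only had to differ, so these counts describe the 2 libraries and carry no test. The balance also rested on the scaling. Median-of-ratios scaling over all transcripts above 0 in both libraries, most of them under 1 TPM, turned it to 8624 higher and 1671 lower, with a median of 0.86. Centring the 2 libraries on the transcripts compared shifted the PRP levels by 0.53 on the log2 scale and gave 3818 higher and 3545 lower. Centring on transcripts of 100 TPM shifted them by -0.41 and gave 1387 higher and 9990 lower.

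**Figure D1:**
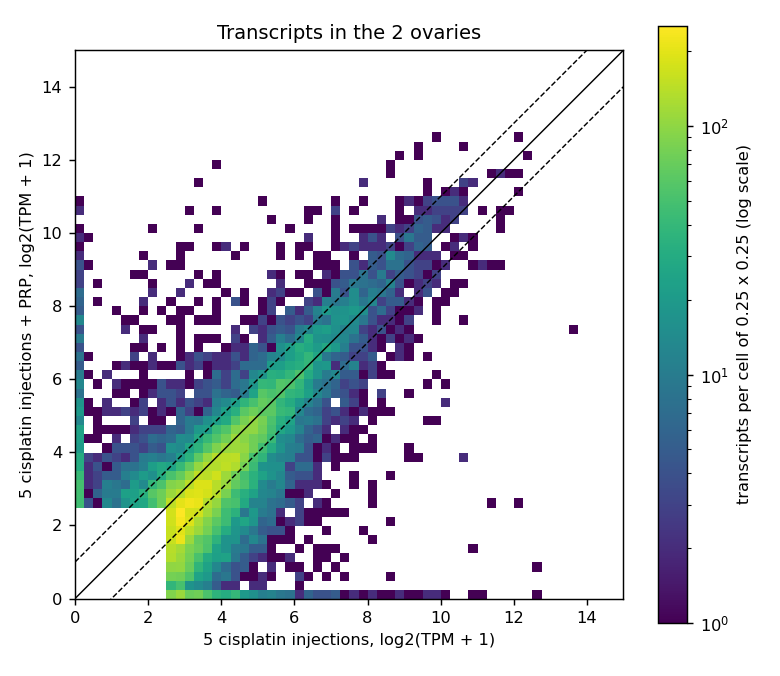
Levels of the 20458 transcripts compared in the cisplatin ovary (horizontal axis) and the PRP ovary (vertical axis), both as log2(TPM + 1); colour gives the number of transcripts in each cell, the solid line marks equal levels and the dashed lines a 2-fold difference on this scale. The bulk of low transcripts lies under the solid line, the upper part of the cloud lies above it, and transcripts estimated at 0 in 1 ovary lie along the axes.

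The direction of the difference followed the level of the transcript. Among 9851 transcripts with a mean below 10 TPM in the 2 ovaries, 777 were higher with PRP and 4202 lower, with a median of -0.81. The 9076 from 10 to 100 TPM had a median of -0.26, with 866 higher and 2047 lower. Among 1531 at 100 TPM or more the balance was the reverse, with 391 higher, 218 lower and a median of 0.40. The sign in each class moved with the scaling. The step from the low to the high class differed in size but kept its direction, except with quantile normalization. The medians of the lowest and highest class were 0.72 and 1.62 with median-of-ratios scaling, -0.17 and 0.92 when the libraries were centred on the transcripts compared, -1.21 and -0.0046 when centred on those of 100 TPM, and -0.60 and 0.84 in counts scaled to a fixed library total (CPM). Quantile normalization, which gives both libraries the same distribution of levels, left 0.05 and 0.06, so that the step closed. It takes out a difference in distribution by construction, so it cannot decide whether the step holds.

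In summed TPM, a similar order appeared up to 1000 TPM when the classes were set by the mean of the other 3 ovaries. Those ovaries took no part in the comparison. The 247684 transcripts under 1 TPM there summed to 84462 TPM in the cisplatin ovary and 36471 TPM in the PRP ovary, a ratio of PRP to cisplatin of 0.432. The ratio was 0.640 for the class from 1 to 5 TPM, 0.840 from 5 to 10, 1.03 from 10 to 100 and 1.36 from 100 to 1000. Each class up to 1000 TPM thus had a higher ratio than the class below it. The 91 transcripts at 1000 TPM or more did not go on with this order, with a ratio of 0.704. Sums give most weight to the most abundant transcripts, and the medians did not follow the same order. From the lowest class to the highest they were -0.21, -0.73, -0.60, -0.37, 0.15 and -0.22. From 10 to 100 TPM 808 transcripts were higher and 2637 lower. From 100 to 1000 TPM 242 were higher and 254 lower, so the excess of higher transcripts did not recur in these counts. Under 500 bases the ratio went from 0.487 in the lowest class to 1.73 in the class from 100 to 1000 TPM. At 4000 bases or more it went from 0.350 to 0.973, and below the short transcripts in each of those classes.

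**Figure D2:**
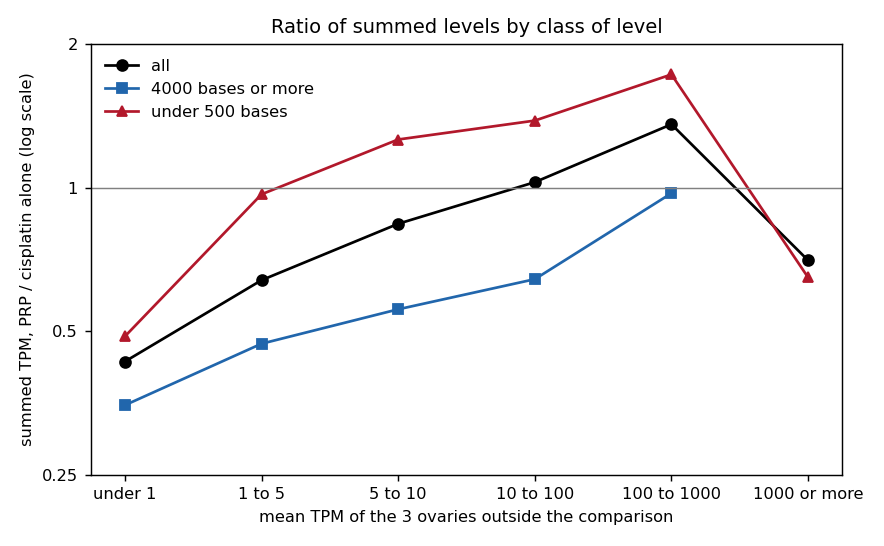
Ratio of the summed TPM in the PRP ovary to that in the cisplatin ovary (vertical axis, log scale) for transcripts grouped by their mean TPM in the saline control, the 3-injection and the 3-injection PRP ovary (horizontal axis); the lines show all transcripts, those of 4000 bases or more and those under 500 bases, and classes of fewer than 20 transcripts are left out. For all transcripts the ratio goes from 0.432 under 1 TPM to 1.36 between 100 and 1000 TPM and is 0.704 above.

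Length set a further contrast. Transcripts from 300 to under 500 bases held most of the upward differences, with 1257 of 5111 higher and 1997 lower. Of those from 500 to under 1000 bases 514 of 4066 were higher and 1477 lower, and from 1000 to under 2000 bases 161 of 3179 were higher and 752 lower. From 2000 to under 4000 bases 68 of 4194 were higher and 853 lower, and at 4000 bases or more 34 of 3908 were higher and 1388 lower. The share of a class that was higher with PRP thus went from 24.6% in the shortest to 0.870% in the longest, while the share that was lower was smallest, at 20.3%, from 2000 to under 4000 bases. The spread narrowed with length: the 5th to 95th percentile ran from -3.34 to 3.96 in the shortest class and from -2.07 to 0.32 in the longest. The number of transcripts of 4000 bases or more at 5 TPM was 3822 in the cisplatin ovary and 2248 in the PRP ovary, and their part of all TPM was 7.50% and 4.57%, against 6.11% to 9.20% in the other 3 ovaries. For the shortest class that part was 29.2% and 36.7%, and the control had 36.7% as well. The median was lower for long than for short transcripts in TPM (-0.75 against -0.40) and with each form of rescaling, but the order was the opposite with whole estimates, at -0.79 for long and -1.12 for short transcripts, and with a filter of 1 TPM, at -0.75 and -0.87. The sign for long transcripts turned with median-of-ratios scaling, to 0.51. The PRP library also had the shorter fragments of the 2, and the part of fragment length in this contrast was not tested.

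Level and length were also read together. Among transcripts under 500 bases the median was -1.05 at a mean below 10 TPM and 0.87 at 100 TPM or more, where 255 of 575 were higher and 63 lower. At 4000 bases or more it was -0.86 below 10 TPM and -0.60 between 10 and 100 TPM, where 8 of 1464 were higher and 364 lower. In TPM, long transcripts were at the median lower with PRP in both of these classes of level, while short transcripts were lower or higher depending on their level.

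**Figure D3:**
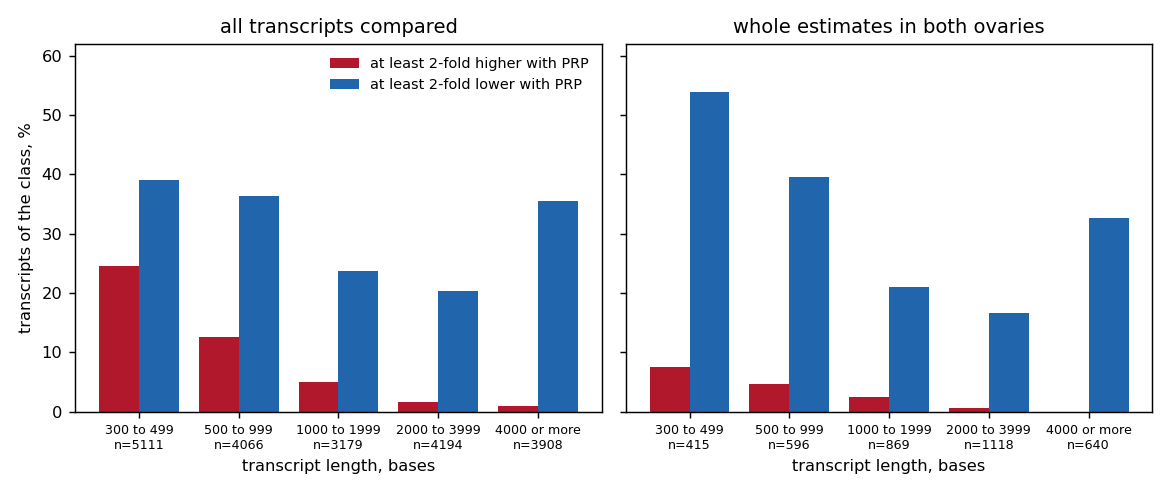
Percentage of transcripts in each of 5 length classes (horizontal axis, bases) that were at least 2-fold higher (red) or at least 2-fold lower (blue) with PRP than with cisplatin alone, for all transcripts compared (left) and for those with whole estimates in both ovaries (right). In both panels the red bars shrink with length, to 0.870% of all and 0 of 640 whole transcripts at 4000 bases or more, and the blue bars exceed the red in each class.

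Where a read matches more than 1 similar transcript its count may be split, which gives estimates that are not whole, and the largest differences lay almost wholly in transcripts of that kind. A transcript has whole estimates here if both estimated counts lie within 1e-06 of a whole number. Of the 20458 transcripts compared 3638 were whole, and of the 1531 with a mean of 100 TPM or more 47 were. The part of level in the largest differences was not tested. For the 3638 whole transcripts, PRP was 2-fold or more above cisplatin alone for 87 and below it for 1036, with a median of -0.53. At 16-fold or more there were 336 higher and 263 lower, of which 2 and 1 were whole. The 1 lower, transcript_45099, was whole only in that its PRP estimate lay within the tolerance of 0. At 8 to 16-fold there were 262 higher and 476 lower, of which 2 and 10 were whole. At 2 to 4-fold there were 1055 higher and 4116 lower, of which 68 and 770 were whole. Among whole transcripts of 4000 bases or more, 0 of 640 reached 2-fold higher and 209 reached 2-fold lower.

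Some transcripts were unlisted, and so taken as 0, in 1 of the ovaries. This was so for 448 of the transcripts compared in the PRP ovary and for 396 in the cisplatin ovary. Of the 448, 294 were listed in each of the other 4 libraries, and of the 396, 101 were. Only 54 were listed in the PRP ovary alone among the 5 libraries, and 13 in the cisplatin ovary alone. Of these 54, 42 were under 500 bases.

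The 5 largest upward differences were all in transcripts of 319 to 607 bases with divided estimates. Transcript_313775, of 338 bases, had 2034 TPM in the PRP ovary (interval 1996 to 2072) and 0 counts in the cisplatin and control ovaries, with 106 TPM after 3 injections and 27.4 TPM after 3 injections with PRP. Against a floor of 3 counts in the cisplatin library it was at least 2057-fold higher, while the exact lower limit of the ratio was 1672. For transcripts with 0 counts, each "at least" value below is set against such a floor and is not an interval limit. The exact lower limits were smaller, as with 32207 against 39603.5 for transcript_45099. Transcript_328811, of 377 bases, had 1586 TPM in the PRP ovary and rounded to 0 counts in all 4 others, at least 1988-fold higher than cisplatin alone. The same held for transcript_407208, of 607 bases, at 1507 TPM, at least 4335-fold higher. For these 2, then, the PRP ovary was the only 1 of 5 with a count. Transcript_70660, of 319 bases, was the opposite case. It had 1137 TPM in the PRP ovary, 368 TPM in the control, 121 TPM after 3 injections and 556 TPM after 3 injections with PRP, and 0 counts in the cisplatin ovary alone. Transcript_253500, of 557 bases, had 989 TPM with PRP and 0.0825 TPM with cisplatin alone, 11979-fold higher with a counting interval from 1335 to 293798, since its cisplatin estimate was under 1 count.

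The 5 largest downward differences were in transcripts at high level in the cisplatin ovary that were at or near 0 with PRP. Transcript_45099, of 703 bases, had 17382 TPM in the control, 4100 TPM after 3 injections, 4831 TPM after 3 injections with PRP and 6772 TPM in the cisplatin ovary, and rounded to 0 counts in the PRP ovary. It was at least 39603.5-fold lower than with cisplatin alone, and its estimate in the PRP library is whole only in that it lies within the tolerance of 0. Transcript_63033, of 776 bases, had 6035 TPM with cisplatin alone and 0.817 TPM with PRP (0.456 to 1.30), 7384-fold lower (4658 to 13236), and 3448 to 6006 TPM in the other 3. Transcript_110652, of 415 bases, went from 2144 TPM to 0 counts, at least 5591-fold lower, and stood at 3111 to 14442 TPM in the others. Transcript_405351, of 722 bases, went from 1906 TPM to 0 counts, at least 11558-fold lower, and stood at 593 to 2480 TPM in the others. The PRP ovary was thus alone at or near 0 for these 4. Transcript_334448, of 337 bases, differed in that it rounded to 0 counts after 3 injections too. It had 3117 TPM in the control, 12.5 TPM after 3 injections with PRP, 1155 TPM in the cisplatin ovary and 0 counts in the PRP ovary, at least 2072-fold lower.

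Among transcripts with whole estimates the largest upward differences were smaller, and levels were low. Transcript_339089, of 2147 bases, rested on the most counts of these. It had 31.8 TPM in the PRP ovary (30.4 to 33.1, from 2137 counts) and 0.973 TPM in the cisplatin ovary (0.701 to 1.32, from 42 counts), 32.6-fold higher (24.1 to 45.4). Its level was 0.306 TPM in the control, 1.68 TPM after 3 injections and 13.3 TPM after 3 injections with PRP. Both PRP ovaries therefore stood above the 3 others for this transcript, whose estimates were whole in all 5 libraries. Transcript_48999, of 305 bases, had 23.3 TPM with PRP and 0 counts with cisplatin alone, at least 19.2-fold higher, and 6.53 to 11.8 TPM in the other 3. Transcript_276870, of 319 bases, had 12.6 TPM with PRP and 0.369 TPM with cisplatin alone, a ratio of 34.2 with an interval from 5.91 to 1372 because the cisplatin value was 1 count. Transcript_142892, of 546 bases, had 10.2 TPM with PRP and 0.412 TPM with cisplatin alone, a ratio of 24.7 (8.27 to 122). In these 3 short transcripts the cisplatin ovary was the lowest of the 5 and the PRP ovary the highest. Transcript_484789, of 307 bases, had 7.60 TPM with PRP, 0 counts with cisplatin alone and in the control, and its highest level, 13.9 TPM, after 3 injections with PRP. It was at least 6.35-fold higher than with cisplatin alone.

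The downward differences with whole estimates in all 5 libraries included transcript_137247, of 796 bases. It had 15.5 TPM in the control, 20.7 TPM after 3 injections, 42.0 TPM after 3 injections with PRP, 29.3 TPM with cisplatin alone and 1.64 TPM with PRP. It was 17.9-fold lower (12.6 to 26.2), and the PRP ovary was the lowest of the 5. Transcript_165309, of 329 bases, had 23.6 TPM with cisplatin alone and 1.56 TPM with PRP, 15.2-fold lower (7.28 to 36.6), and 3.99 to 15.9 TPM in the others. Transcript_268764, of 491 bases, had 11.7 TPM with cisplatin alone and 0.0969 TPM, or 1 count, with PRP, a ratio of 120 (20.9 to 4821). Its level in the other 3 was 0.128 to 0.832 TPM, so here it was the cisplatin ovary that stood apart. Transcript_212596, of 508 bases, had 9.46 TPM with cisplatin alone and 0.0918 TPM, or 1 count, with PRP, a ratio of 103 (17.8 to 4134).

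Transcript_212595, with the neighbouring number and 4217 bases, was among the largest downward differences of the long whole transcripts. It had 3.24 TPM in the control, 2.17 TPM after 3 injections, 12.0 TPM after 3 injections with PRP, 7.76 TPM with cisplatin alone and 0.541 TPM with PRP (0.426 to 0.678), 14.3-fold lower (11.3 to 18.4). Transcript_212596 had the same order of the 5 ovaries, with 3.00, 1.70, 11.0, 9.46 and 0.0918 TPM. Transcript_47080, of 4236 bases, had 33.4 to 43.2 TPM in all 4 other ovaries and 4.87 TPM with PRP (4.52 to 5.26), 7.57-fold lower than with cisplatin alone (6.97 to 8.24). Its level was close in the 4 others and stood apart only in the PRP ovary. Transcript_58034, of 8043 bases, had 15.8 TPM in the control, 12.9 TPM after 3 injections, 6.02 TPM after 3 injections with PRP, 23.2 TPM with cisplatin alone and 3.29 TPM with PRP, 7.05-fold lower (6.55 to 7.59).

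No whole transcript of this length was 2-fold higher, so the 3 at the upper end lie under that threshold. Transcript_133348, of 4675 bases, had 26.2 TPM with PRP and 14.9 TPM with cisplatin alone, 1.76-fold higher (1.65 to 1.86), against 11.6 to 17.6 TPM in the other 3. Transcript_403290, of 5633 bases, had 5.05 TPM and 2.73 TPM, 1.85-fold higher (1.63 to 2.11). Transcript_58891, of 4220 bases, had 9.87 TPM and 6.60 TPM, 1.49-fold higher (1.36 to 1.65). All 3 were at their highest in the PRP ovary.

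By TPM itself, 4 of the 5 largest gains with PRP were in transcripts also above 100 TPM in every other ovary. Transcript_379266, of 1917 bases, had 932 TPM in the control, 348 TPM after 3 injections, 154 TPM after 3 injections with PRP, 991 TPM with cisplatin alone and 6222 TPM with PRP, 6.28-fold higher (6.21 to 6.35). With 369400 estimated counts it alone held 1.16% of the PRP library. Transcript_220070, of 721 bases, had 1066, 294, 1421, 684 and 5437 TPM in the same order of ovaries, 7.95-fold higher with PRP. Transcript_346721, of 349 bases, had 607, 352, 1232, 503 and 4741 TPM, 9.43-fold higher, and transcript_379516, of 927 bases, had 892, 281, 1054, 661 and 4514 TPM, 6.83-fold higher. These last 3 shared their order over the 5 ovaries, lowest after 3 injections, then cisplatin alone, control, 3 injections with PRP, and highest with PRP after 5. Transcript_13969, of 447 bases, had 3.43 to 13.4 TPM in 4 ovaries and 3719 TPM with PRP, 278-fold higher (220 to 358).

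The largest losses in TPM included 3 transcripts not yet described. Transcript_130766, of 330 bases, had the highest level of any transcript in each of the 4 other ovaries. It had 27751 TPM in the control, 9244 TPM after 3 injections, 4896 TPM after 3 injections with PRP, 11878 TPM with cisplatin alone and 167 TPM with PRP, 71.0-fold lower (66.4 to 76.1). Transcript_230951, of 621 bases, was at 4516 TPM in the control and 4414 TPM with cisplatin alone, at 187 and 188 TPM in the 3-injection ovaries, and at 5.64 TPM with PRP, 783-fold lower (632 to 984). Transcript_147425, of 303 bases, was at 2482 TPM with cisplatin alone and 5.02 TPM with PRP, 495-fold lower (324 to 785). It was at 4321 TPM after 3 injections with PRP, and at 132 TPM in the control. None of these 10 transcripts of largest gain or loss had whole estimates in all 5 libraries, so their levels are uncertain, since split reads can shift counts between similar copies.

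**Figure D4:**
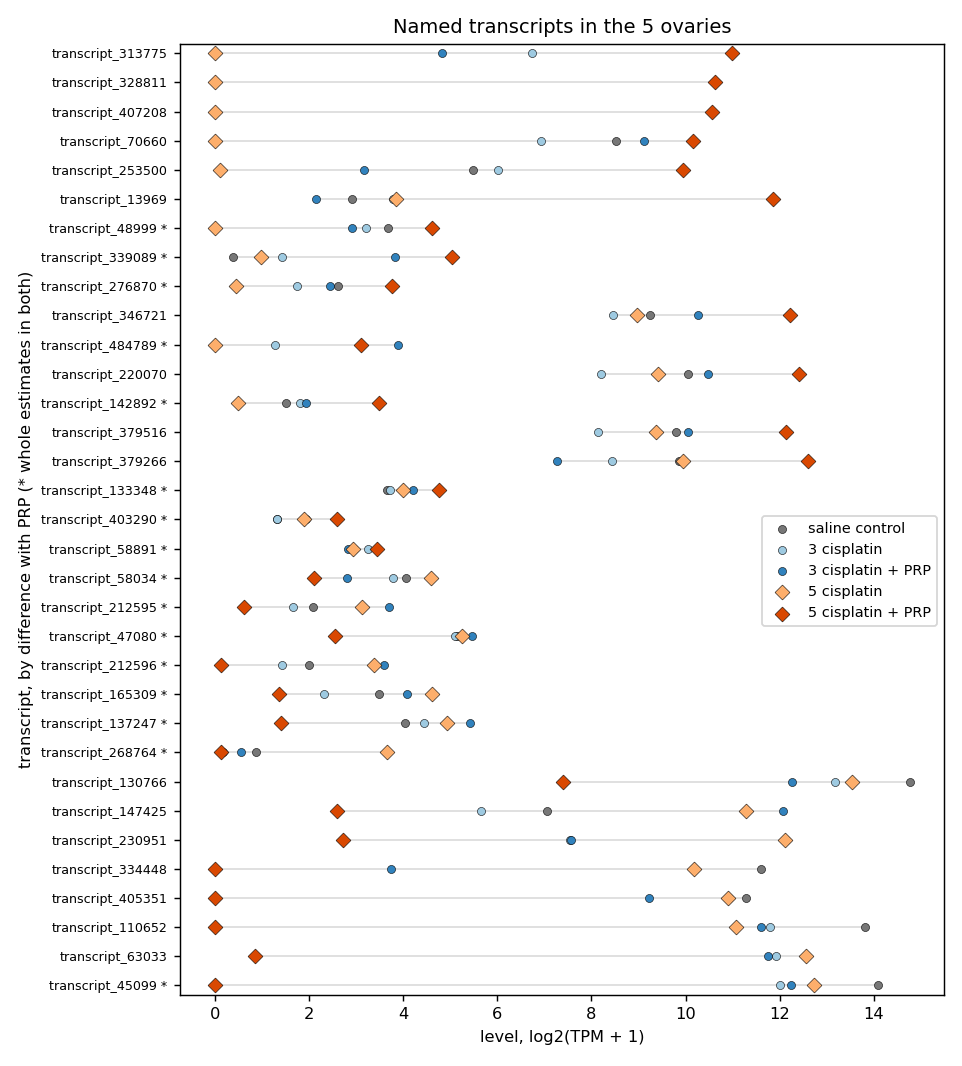
Levels, as log2(TPM + 1), of the 33 named transcripts (vertical axis, from the largest downward difference at the bottom to the largest upward at the top) in the 5 ovaries, with diamonds for the cisplatin and PRP ovaries and circles for the other 3; an asterisk marks the 16 with whole estimates in both. The PRP ovary is at one end of the range for all but transcript_484789, and for transcript_47080 the 4 other ovaries lie together.

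Set against the 3 ovaries outside the comparison, more of these differences placed the PRP ovary apart than the cisplatin ovary. For 2209 of the 6467 transcripts lower with PRP, the PRP ovary was also at least 2-fold below each of the control, 3-injection and 3-injection PRP ovaries, and for 313 the cisplatin ovary was at least 2-fold above each of them. For 3358 the cisplatin level lay within the range of the 3, and for 1197 the PRP level did. Of the 2034 transcripts higher with PRP, the PRP ovary was 2-fold above all 3 for 804, and the cisplatin ovary 2-fold below all 3 for 175. The median level of the 6467 was 8.87 TPM in the control, 7.64 TPM after 3 injections, 8.31 TPM after 3 injections with PRP, 11.3 TPM with cisplatin alone and 2.49 TPM with PRP. That of the 2034 was 5.61, 10.2, 6.84, 3.78 and 27.2 TPM. Both groups were picked on the last 2 ovaries, so only the first 3 levels are free of that choice. The 2034 transcripts made up 6.55% of all TPM in the cisplatin ovary and 30.8% in the PRP ovary, and 8.54% to 12.5% in the other 3. The 6467 made up 26.5% and 5.65%, against 20.4% to 31.1%.

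The same question was put to every ovary in turn, over the 24597 transcripts at 5 TPM in any library. The PRP ovary was at least 2-fold below all 4 others for 2530 transcripts, where each of the other 4 was so for 254 to 743. It was at least 2-fold above all 4 others for 804, within the 313 to 906 of the others. At 4000 bases or more the PRP ovary was below all others for 539 of 4815 transcripts, and each other ovary for 8 to 11. With whole estimates in all 5 libraries it was below for 222 of 3641, and the others for 5 to 20. With median-of-ratios scaling over the 5 libraries the PRP ovary was below the others for 1328 and above them for 1869, so that which side was larger turned with the scaling, while the others were below for 301 to 951 and above for 227 to 1024. For long transcripts the numbers under that scaling were 167 below and 34 above, and for those with whole estimates in all 5 libraries they were 77 below and 123 above. This PRP ovary thus had the most transcripts outside the range of the rest under both scalings.

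**Figure D5:**
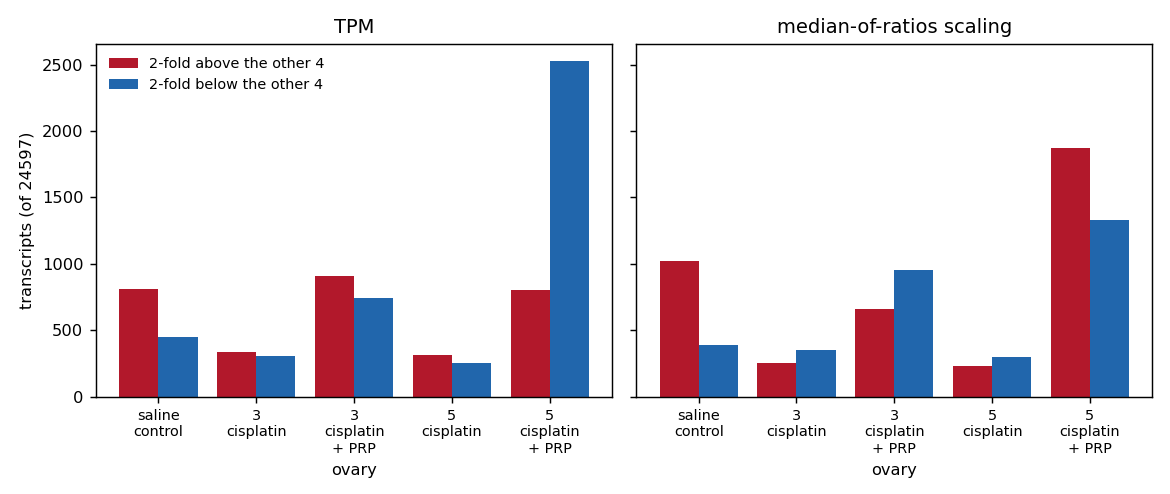
Number of transcripts, of 24597, for which each ovary (horizontal axis) was at least 2-fold above (red) or at least 2-fold below (blue) all 4 others on the log2(TPM + 1) scale, in TPM (left) and with median-of-ratios scaling over the 5 libraries (right). The PRP ovary after 5 injections is below the others for 2530 transcripts in TPM and for 1328 after rescaling, and above them for 804 and 1869.

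After 3 injections the same treatment was set against cisplatin alone in a pair of ovaries that shares no library with this one. There PRP was 2-fold or more above cisplatin alone for 3240 of 21359 transcripts (15.2%) and below it for 2715 (12.7%). By level the order was the opposite of that after 5 injections, with medians of 0.21 below 10 TPM, 0.03 between 10 and 100 TPM and -0.16 at 100 TPM or more. In that pair it was the PRP library that had the longer fragments, 217 bases against 186, and the part of fragment length in either order was not tested. Of the 6467 transcripts lower with PRP after 5 injections, 5271 were also compared after 3 injections, where their median difference was 0.18, against 0.03 for all 17940 compared in both. For the 1443 of the 2034 higher transcripts the median after 3 injections was -0.44. Among transcripts whole in all 4 libraries, the 692 lower ones had a median of 0.43 after 3 injections and the 60 higher ones -0.07, against 0.09 for all 2870. At 4000 bases or more the 1263 lower transcripts had a median of 0.36, against 0.25 for all 3710. Transcripts lower with PRP after 5 injections were therefore, at the median, higher with PRP after 3 injections, and by more than transcripts at large. Their levels were low, however, with medians of 7.64 TPM after 3 injections and 8.31 TPM after 3 injections with PRP. All transcripts with a mean below 10 TPM in that pair had a median difference of 0.21, against 0.18 for the lower set. The part of level in this excess was not tested. Of the 33 named transcripts, 27 were compared after both schedules. Of these, 9 differed at least 2-fold in opposite directions and 7 at least 2-fold in the same direction. The named transcripts were picked as extremes of the difference after 5 injections, so the counts over all transcripts are set beside them. Among all 5271 lower transcripts, 1122 (21.3%) were 2-fold higher after 3 injections and 752 (14.3%) 2-fold lower. Among the 1443 higher ones, 478 (33.1%) were 2-fold lower after 3 injections and 212 (14.7%) 2-fold higher. Over all 17940 compared in both, 1992 (11.1%) were 2-fold higher after 3 injections and 2176 (12.1%) 2-fold lower.

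Transcripts with nearby running numbers differed alike to a small degree, and 1 stretch of numbers held more of the TPM with PRP. No label says what the order of the numbers stands for. Over 6513 pairs of compared transcripts with consecutive numbers the Spearman correlation of their differences was 0.213, and 0.155 over 791 pairs with whole estimates; pairs come from the same 2 libraries and may share reads, and no p is given. The stretch from 379000 to 380499, singled out after its values were seen, held 589 compared transcripts with a median length of 534 bases. Of these, 173 (29.4%) were higher with PRP and 80 (13.6%) lower, with a median difference of 0.37. Over all transcripts compared these shares were 9.94% and 31.6%. From 300 to under 500 bases they were 24.6% and 39.1%, and 44.3% and 11.0% for those with a mean of 100 TPM or more. The stretch made up 9.08% of all TPM in the control, 11.5% after 3 injections, 10.1% after 3 injections with PRP, 10.3% with cisplatin alone and 14.7% with PRP. Without transcript_379266 and transcript_379516, described above, it still held 10.2% and 13.6% in the cisplatin and PRP ovaries. Only 1 of the 589 had whole estimates. Of 753 blocks of 500 numbers with at least 10 transcripts compared, 690 had a median difference below 0 and 63 above it. The median over all transcripts compared was itself -0.48 in TPM and turned with the scaling, so this count is not a result about the numbering.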

How the data were processed

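Stranded RNA libraries were made from 5 ovaries, 1 per group, per the labels' protocols. Tools listed without versions, per the submitters' processing notes, were HISAT2, fastp, FastQC and MultiQC. Program, transcript set and build behind the abundance tables: not given in the sources used here. Per the file headers, each table deposited by the authors gives transcript length, effective length, estimated count and TPM, and lists only transcripts above 0. Other transcripts were taken as 0. In the cisplatin and PRP tables after 5 injections, 97 and 69 TPM values and 3 and 2 estimated counts were about 1000 times too large against the table's own ratio of TPM to count per effective length. Those counts were divided by 1000, and TPM was recomputed to a total of 1000000.

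A transcript was compared at 5 TPM in at least 1 of the 2 libraries, with a pseudocount of 1 TPM and a threshold of 2-fold. Intervals are exact Poisson for levels and exact binomial for ratios (95%), and the floor for 0 counts is 3 counts in that library. Named are the 5 largest differences each way, the 5 each way with whole estimates, the 3 each way of these with 4000 bases or more, and the 5 largest gains and losses in TPM. Alternatives covered scaling, filter, pseudocount, threshold and whole estimates, and 2 of the scalings were chosen after seeing the data. Marker lists could not be evaluated without gene names. The counting step was run on simulated counts with no split reads and the same effective lengths in both libraries. That run therefore does not bear on split reads or on fragment length. Python 3.11.15, pandas 2.3.3 and scipy 1.17.1 were used. The comparison, length classes and named-transcript rules were chosen with earlier results of these data known.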

Additional observations from a re-analysis of the deposited data

Results flagged for a closer look

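The median PRP difference had opposite signs after 5 and 3 injections in the lowest and highest classes of level and in the longest class. Opposite signs also held from 10 to 100 TPM, at -0.26 and 0.03, from 1000 to under 2000 bases, at -0.18 and 0.02, and from 2000 to under 4000 bases, at -0.41 and 0.10. The sign was the same from 300 to under 500 bases, at -0.40 and -0.18, and from 500 to under 1000 bases, at -0.45 and -0.07. After 5 injections the signs in the classes of level and at 4000 bases or more turned with the scaling. For the medians after 3 injections no other scaling is given. Of the 27 named transcripts compared after both schedules, 9 differed at least 2-fold in opposite directions and 7 in the same direction. Opposite directions were the more frequent among all transcripts that differed after 5 injections too. Of 5271 lower ones, 1122 were 2-fold higher after 3 injections and 752 2-fold lower. Of 1443 higher ones, 478 were 2-fold lower after 3 injections and 212 2-fold higher. Each rests on 4 single libraries, and no difference between schedules was tested. Subtracting the value after 3 injections from that after 5, the medians differed by -1.02 at a mean below 10 TPM, by 0.56 at 100 TPM or more and by -1.04 at 4000 bases or more, the last from 0.29 after 3 injections and -0.75 after 5.

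On the log2(TPM + 1) scale, 4 of the 9 named transcripts had more with PRP after 5 injections but less after 3. The gap was 12.90 for transcript_313775, 12.69 for transcript_253500, 9.64 for transcript_13969 and 3.82 for transcript_379266. For the 5 that were lower after 5 injections and higher after 3, the gap was -15.12 for transcript_147425, -13.93 for transcript_334448, -5.42 for transcript_212596, -5.03 for transcript_165309 and -4.54 for transcript_212595. The last 3 had whole estimates in all 5 libraries, and the other 6 did not.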

How the results depend on the processing

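Each group held 1 library, so no replicate was left out, and depth limits transcripts of a few counts most. No paired analysis was possible because each group holds 1 library. Of 396 recomputed differences of named transcripts, 266 stayed within their counting interval, 130 moved beyond it and 0 changed sign. The filters and the restriction to whole estimates leave the difference of a single transcript as it is by construction. Part of the 266 was therefore fixed in advance, and the named transcripts were chosen for large differences. The as-deposited TPM column and counts left the results below on the same side.

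As reported, 2034 transcripts were higher and 6467 lower, and the median difference was -0.48 over all transcripts, -0.75 at 4000 bases or more and -0.40 under 500 bases; the values below are in that order. Median-of-ratios scaling over all 154561 transcripts above 0 in both libraries, of which 68.0% were under 1 TPM in both, turned every direction, to 8624, 1671, 0.86, 0.51 and 1.19. The next 2 settings were chosen after seeing the data. The same scaling on compared transcripts gave 3818, 3545, 0.12, -0.23 and 0.33, and on transcripts of 100 TPM 9990 lower and medians of -0.90, -1.12 and -0.91. Quantile normalization gave 3167, 3563, 0.0061, -0.21 and 0.16. In CPM the medians were -0.25, -0.67 and 1.01. A filter of 20 TPM gave 1173, 1796, -0.10, -0.69 and 0.26, and a filter of 1 TPM 3460 higher, 20459 lower and medians of -0.78 overall and -0.87 under 500 bases. Without a filter these counts were 3460 and 20459 and the medians -0.29, -0.56 and -0.32. Whole estimates gave 87, 1036, -0.53, -0.79 and -1.12. Centring within length classes gave 3259 and 4155, with a median of 0 by construction. A pseudocount of 0.1 TPM gave medians of -0.52 and -0.84 overall and at 4000 bases or more, and a threshold of 4-fold 979 higher and 2351 lower. The centring, the filters, the threshold and the whole estimates set fewer or other transcripts or a fixed median by their construction. The forms of median-of-ratios scaling move the PRP levels against the cisplatin levels by a constant. On the log2 scale it was 1.23 over all transcripts above 0, 0.53 on those compared and -0.41 on those of 100 TPM. Quantile normalization sets equal distributions, CPM leaves out the division by length, and the pseudocount acts most on low levels. What in the libraries lies behind these shifts was not tested.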
